A study of Mus musculus with 6 samples.

Results

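The 10 genes followed here mark pluripotency, the capacity of embryonic stem cells to form every tissue of the embryo: Pou5f1, Nanog, Sox2, Zfp42, Esrrb, Dppa3, Dppa4, Dppa5a, Utf1 and Tfcp2l1. Their levels were read in cells that had been grown out of mouse embryonic stem cells towards blood. All probe sets that the platform annotation assigns to one of these symbols alone were taken, which gave 16 probe sets of the 45037 analysed. Of the 10 genes, 7 had 1 probe set and 3 (Esrrb, Utf1 and Tfcp2l1) had 3.

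The tested cells were Gata3-/- (3 arrays), without an intact copy of the transcription factor gene Gata3, and they were set against Gata3+/- cells (3 arrays), which keep 1 copy. Both genotypes were differentiated alike on OP9 and OP9-DL1 stromal cells, the second of which present the Notch ligand DL1, with IL-7 and Flt3L. Cells labelled as T-cell progenitors were then sorted, and the sources used here do not give the sort markers, the number of stem cell clones or the alleles. No undifferentiated stem cells were analysed here, so each level is read against a fixed minimum and not against a stem cell level. That minimum was a log2 intensity of 4, and a probe set was tested, and its gene called measurable, when it reached the minimum on at least 3 of the 6 arrays. The titles call the arrays biological replicates without naming separate cultures, so p-values measure the spread between these arrays, and the number of arrays limits the precision.

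In embryonic stem cells the transcription factors OCT4, encoded by Pou5f1, and SOX2 bind DNA side by side and switch on a network that includes Nanog and their own genes. ESRRB, TFCP2L1 and ZFP42 belong to the naive state of that network, and the DPPA genes and Utf1 are expressed in pluripotent and early germ cells. When stem cells differentiate, the network is shut down and lineage factors take over. In a population measured as a whole, fewer cells of a type and less RNA per cell cannot be told apart.

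The cells were labelled as T-cell progenitors, but few of the T-lineage markers chosen here were measurable. As the sort markers are not given, this is no check of the label. Of 11 named T-lineage markers, 1 (Cd5) was measurable and 10, among them Cd3e, Ptcra and Bcl11b, were not, whereas all 8 general blood cell markers and all 10 monocyte and macrophage markers were. Cd5 was at 6.26, 6.71 and 5.59 in Gata3-/- cells and at 4.50, 4.50 and 5.24 in Gata3+/- cells. It was thus higher in Gata3-/- cells without overlap, but did not pass (difference 1.44, SE 0.35, limma adjusted p = 0.0764). Of the 10 monocyte and macrophage genes 9 were lower in Gata3-/- cells. Cd68, named after its values were seen, was higher (difference 0.53, SE 0.10, limma adjusted p = 0.0541). Of the 15 probe sets of these markers, limma at an adjusted p under 0.05 called 0 higher and 4 lower in Gata3-/- cells (2 of Fcgr1, 1 of Mpeg1 and 1 of C1qb). Over all tested probe sets it called 4.37%. The genotypes did not overlap for 13 of 15, Cd68 among them, against 30.6% of all tested probe sets. Their mean log2 level over 10 genes lay between 12.46 and 12.69 in Gata3-/- cells, against 12.88 to 13.10 in Gata3+/- cells. Stromal markers were measurable for 10 of 12 genes. Their mean log2 level was 8.30, 7.42 and 9.47 on Gata3-/- arrays 1, 2 and 3, against 9.61, 7.84 and 9.47 on Gata3+/- arrays 1, 2 and 3, so array 2 was the lowest of both genotypes. The Gata3 probe set differed by 0.05 (SE 0.34, limma adjusted p = 0.954). Which part of the gene was disrupted is unstated, so this is no check of the genotypes. On each array 44.4% to 44.7% of all probe sets reached the minimum.

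Most of the 10 genes were not measurable in either genotype. The minimum was reached on at least 3 arrays by 3 of the 16 probe sets (18.8%), one each for Dppa3, Dppa4 and Dppa5a, compared with 44.6% of all probe sets. The other 13 probe sets, which are all those of the remaining 7 genes, gave 78 values, of which 77 lay under the minimum. The exception was Nanog on 1 Gata3+/- array. None of the 3 tested probe sets differed between the genotypes by limma at an adjusted p under 0.05, where 4.37% of all 20102 tested probe sets did (2.25% higher and 2.12% lower in Gata3-/- cells). An unadjusted limma p under 0.05 was reached by 0 of 3, against 4722 of the 20102. Without the filter limma called 0 of 16, where it called only 166 of all 45037. An unadjusted limma p under 0.05 was then reached by 0 of 16, against 5294 of 45037. With so few calls in all, 0 of 16 says little about these genes.

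**Figure D1:**
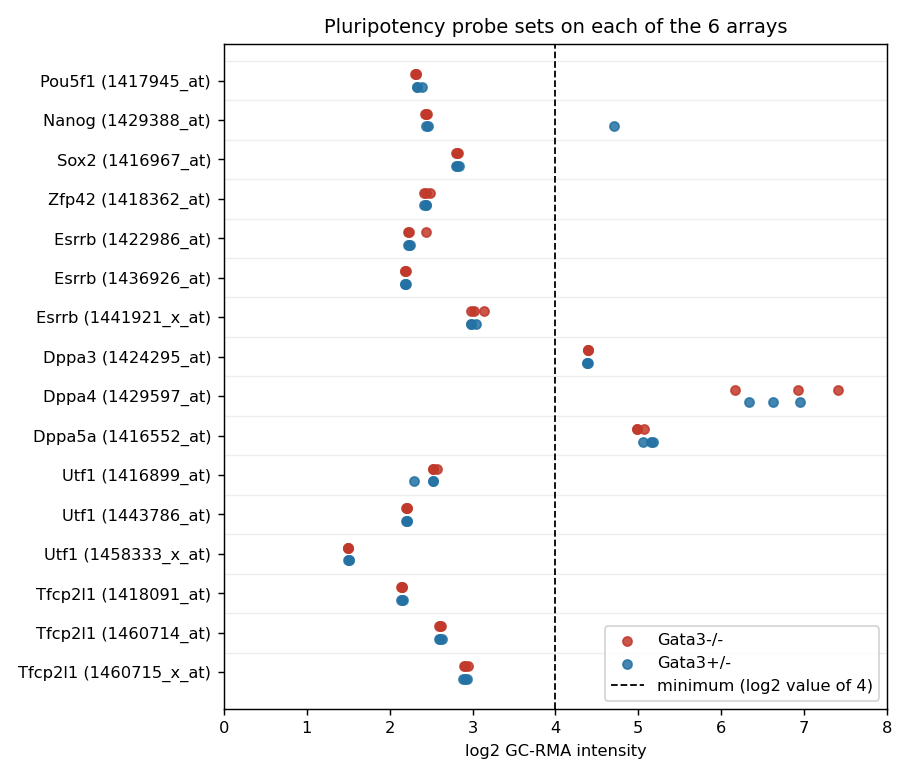
Log2 GC-RMA intensity of the 16 probe sets on each array, with Gata3-/- arrays in red above Gata3+/- arrays in blue in each row and the minimum of 4 as a dashed line. Dppa3, Dppa4 and Dppa5a lie right of the line on all 6 arrays, Nanog on 1 Gata3+/- array at 4.70, and all others lie at or under 3.14.

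The core factors stood at the bottom of the scale. Pou5f1, which encodes OCT4, had log2 levels of 2.32, 2.30 and 2.32 in Gata3-/- cells, against 2.33, 2.33 and 2.39 in Gata3+/- cells. The genotypes did not overlap for this probe set, but the means lay only 0.03 apart and every value was far under the minimum. Non-overlap was seen in 30.6% of tested probe sets. The share among the probe sets that were not tested, to which that of Pou5f1 belongs, was not counted. Sox2, which encodes the partner of OCT4, had levels of 2.80, 2.82 and 2.81 in Gata3-/- cells and 2.81, 2.84 and 2.80 in Gata3+/- cells. All 6 arrays lay within 0.04 of each other, and the genotypes overlapped.

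Nanog, a homeodomain factor that stabilises the pluripotent state, was at 2.43, 2.45 and 2.44 in Gata3-/- cells. In Gata3+/- cells it was at 4.70, 2.46 and 2.44. The single high value, an intensity of 26.0 on Gata3+/- array 1, stood 2.24 above the next array. It was not shared by the 2 core partners on that array, where Pou5f1 was at 2.33 and Sox2 at 2.81, nor by Zfp42, at 2.43. Among the further stem cell markers described below, Tdgf1, at 5.83, and L1td1, at 3.71, were also highest on that array. L1td1 was at 2.62 to 2.68 on the other arrays, and Tdgf1 was at 5.19 on Gata3+/- array 2. The choice of these 2 followed their values. Tex19.1 of the same list was lowest on Gata3+/- array 1, at 3.60. Morc1 was at 2.63 there and highest on Gata3-/- array 2, at 6.17. How many genes of that list were highest on Gata3+/- array 1 was not counted. Over all probe sets, 572 reached the minimum on exactly 1 array, and 75 of these did so on Gata3+/- array 1. The gap of 2.24 is that of Nanog itself, so Nanog was counted by definition, and no other of those 75 reached it. Gata3-/- arrays 1, 2 and 3 held 3, 7 and 0 probe sets with such a gap, and Gata3+/- arrays 2 and 3 held 1 and 0. Without replication the Nanog value remains a reading of 1 array.

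Nanog lies on chromosome 6 beside Dppa3 and Gdf3, so the neighbouring genes were examined after the Nanog values were seen. Dppa3, the next gene on one side, was at 4.39 on Gata3+/- array 1, as on the other arrays. Gdf3, a TGF-beta family ligand of stem cells that follows Dppa3, had levels of 8.03, 8.15 and 8.28 in Gata3-/- cells and 9.13, 8.47 and 8.85 in Gata3+/- cells (difference -0.66, SE 0.18, limma adjusted p = 0.0995). Its second probe set gave -0.66 (SE 0.16, adjusted p = 0.0805), so neither passed although the genotypes did not overlap. On the other side lies Slc2a3, a glucose transporter gene, whose 4 probe sets were all highest on Gata3+/- array 1 and did not pass, with differences from -0.66 to -0.25. Gdf3 too was highest on that array with both probe sets. Further out, Apobec1, at 12.99, Necap1, at 10.25, and the measurable probe set of Foxj2, at 8.40, were highest on Gata3+/- array 3. So were 2 of the 3 probe sets of C3ar1, at 11.81 and 12.48. The remaining probe set of C3ar1 was highest on Gata3+/- array 1, at 12.44, against at most 12.41 on the other arrays. The share of all tested probe sets that were highest on Gata3+/- array 1 was not counted. An effect of the locus was therefore not tested.

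The promoters of 7 of the 10 genes (Pou5f1, Nanog, Sox2, Zfp42, Esrrb, Utf1 and Tfcp2l1) were listed in RefSeq, build GRCm38.p6, from 250 bases before to 50 bases after the gene start. They are shown where they hold the letters TTTGCAT or, read on the opposite strand, ATGCAAA, the core of the octamer that OCT4 is known to bind. These letters occur in the promoters of 3 of the 7 genes, Nanog, Sox2 and Zfp42, and in those of 5.24% of the 27025 genes in the table. Counted by promoter, since a gene can have several, 4 of 10 held them, against 4.63% of 32851. The match, in capitals, begins 75 bases before the first listed start of Nanog (151 before the second, whose promoter overlaps the first and is not printed), 99 before that of Sox2 and 185 before that of Zfp42. Each sequence is written 5′ to 3′ on the strand of its gene.
Nanog promoter (chr6:122707239-122707538, + strand): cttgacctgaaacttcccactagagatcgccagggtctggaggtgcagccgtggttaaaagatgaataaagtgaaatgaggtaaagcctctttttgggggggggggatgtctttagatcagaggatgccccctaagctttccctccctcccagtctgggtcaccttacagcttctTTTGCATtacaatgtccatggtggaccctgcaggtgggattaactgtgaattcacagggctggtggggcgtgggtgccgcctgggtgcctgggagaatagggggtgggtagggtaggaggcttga
Sox2 promoter (chr3:34649745-34650044, + strand): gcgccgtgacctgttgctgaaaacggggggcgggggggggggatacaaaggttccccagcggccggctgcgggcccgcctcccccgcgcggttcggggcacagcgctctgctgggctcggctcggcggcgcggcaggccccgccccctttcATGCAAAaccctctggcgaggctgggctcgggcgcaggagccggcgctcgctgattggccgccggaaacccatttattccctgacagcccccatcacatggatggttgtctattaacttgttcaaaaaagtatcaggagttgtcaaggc
Zfp42 promoter (chr8:43306960-43307259, - strand): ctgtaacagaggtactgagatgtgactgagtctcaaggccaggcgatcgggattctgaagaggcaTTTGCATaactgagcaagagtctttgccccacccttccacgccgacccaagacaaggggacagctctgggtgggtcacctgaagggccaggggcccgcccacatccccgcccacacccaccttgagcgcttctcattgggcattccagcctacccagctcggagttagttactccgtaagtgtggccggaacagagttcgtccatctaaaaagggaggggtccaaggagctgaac
A match describes these letters only. The 3 genes with a match and the 4 without it all stayed under the minimum, apart from the 1 Nanog value given above.

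The genes of the naive state were also under the minimum throughout. Zfp42, known as REX1 and a widely used marker of undifferentiated stem cells, had levels of 2.42, 2.49 and 2.43 in Gata3-/- cells and 2.43, 2.44 and 2.41 in Gata3+/- cells. The 3 probe sets of Esrrb, an orphan nuclear receptor that sustains self-renewal, lay between 2.18 and 3.14 on all arrays. The widest spread among them was that of 1422986_at, at 2.44 on Gata3-/- array 3 and 2.22 to 2.24 on the other arrays. Tfcp2l1, a factor downstream of LIF and STAT3 in stem cells, had 3 probe sets between 2.14 and 2.95, and the genotype means of each differed by at most 0.01.

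Utf1, a chromatin-associated protein of undifferentiated cells, had 3 probe sets between 1.49 and 2.57. On Gata3+/- array 3 the probe set 1416899_at was at 2.30, while the other arrays lay at 2.52 to 2.57. Setting Nanog aside, the 12 probe sets under the minimum varied by at most 0.27 over the 6 arrays, and 9 of the 12 varied by less than 0.1. The same flatness was seen in 75.3% of the 24935 probe sets that were not tested, against 1.97% of those that were.

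Of the 3 tested genes, Dppa4 varied most between arrays. Dppa4, a nuclear protein of stem cells that acts with DPPA2 on chromatin, had log2 levels of 6.16, 7.41 and 6.92 in Gata3-/- cells. In Gata3+/- cells it had levels of 6.33, 6.95 and 6.62. All 6 arrays were well above the minimum, the genotypes overlapped completely, and array 2 was the highest of both. Means were 6.83 ± 0.63 in Gata3-/- cells and 6.63 ± 0.31 in Gata3+/- cells (SD, n = 3 each), and they differed by 0.20 (95% interval -0.66 to 1.05, SE 0.35, limma adjusted p = 0.782). An exact two-sided permutation test over the 6 arrays gave p = 0.8, where 0.1 is the smallest value that 3 arrays against 3 allow. The sign rested on Gata3-/- array 2, without which the difference was -0.09.

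Dppa3, also called Stella, a maternal and germ cell factor that guards DNA methylation in the early embryo, was at 4.39 on all 3 Gata3-/- arrays and at 4.39, 4.39 and 4.38 in Gata3+/- cells. Its 6 values spanned 0.02, and only 37 of the 20102 tested probe sets (0.18%) varied that little or less. The difference was 0.01 (95% interval -0.15 to 0.16, limma adjusted p = 0.970). Dppa5a, an RNA-binding protein of stem cells, had levels of 4.99, 4.99 and 5.07 in Gata3-/- cells and 5.05, 5.17 and 5.15 in Gata3+/- cells. The genotypes overlapped by 1 array, and the difference was -0.11 (95% interval -0.29 to 0.07, limma adjusted p = 0.416). A span of 0.19 or less, as for Dppa5a, was found in 7.68% of tested probe sets. Dppa3 thus passed the minimum with values as flat as those of most probe sets under it, while the span of Dppa5a exceeded that of 10 of the 12 probe sets under the minimum set out above. Whether either gene was expressed was not tested.

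The genes whose profile over the 6 arrays was closest to that of Dppa4, by the root mean square difference of log2 levels after each was centred on its mean, were C730049O14Rik (0.15), Akr1c13 (0.17), an aldo-keto reductase, and Cmpk2 (0.18), a mitochondrial nucleotide kinase. They were taken from 18239 tested probe sets with 1 symbol. For Dppa3 the closest were Grwd1, Cbfa2t2 and Krba1, each within 0.0039, and for Dppa5a they were Hspa8, Afg3l2 and Letmd1, each within 0.022. The profiles likened to Dppa3 and Dppa5a are nearly level lines.

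Array 2 of both genotypes, on which Dppa4 was highest, was also where stromal markers were lowest, in 14 of 18 tested stromal probe sets. Across all tested probe sets 23.2% were highest and 19.0% lowest on array 2 of both genotypes. Dnmt3b, a de novo DNA methyltransferase active in stem cells that is named after its values were seen, was likewise highest there by probe set 1449052_a_at, at 11.13 on Gata3-/- array 2, against at most 10.13 on the other Gata3-/- arrays, and at 11.04 on Gata3+/- array 2, against at most 10.50 on the other Gata3+/- arrays. The part of stromal RNA in the spread of Dppa4 was not tested.

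**Figure D2:**
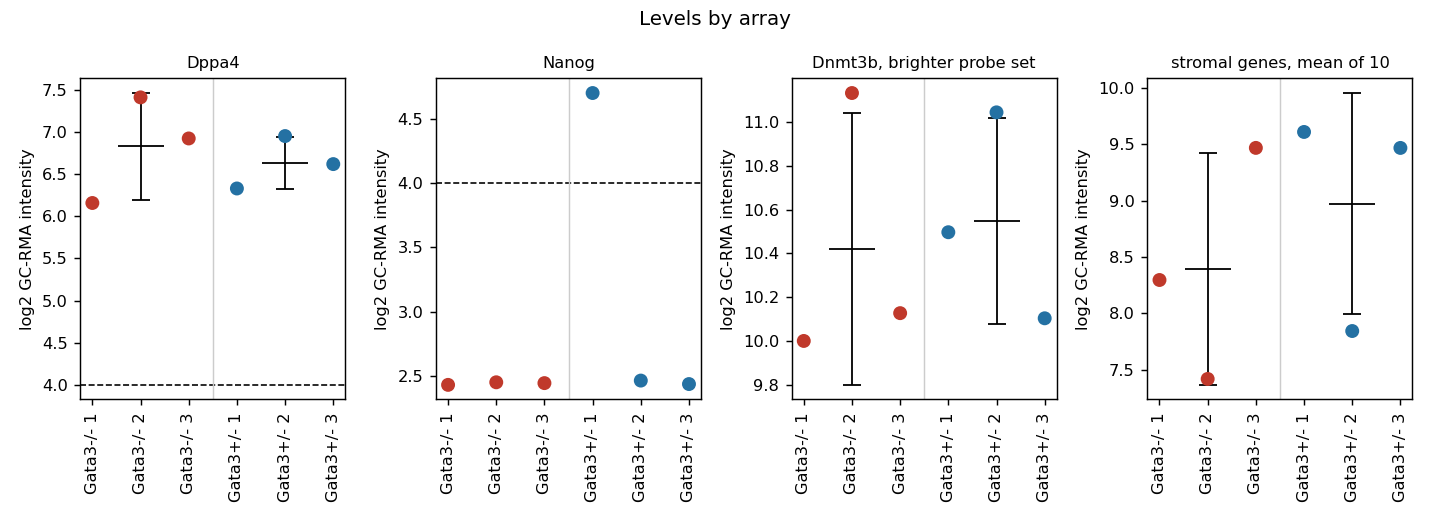
Log2 GC-RMA intensity of Dppa4, Nanog and Dnmt3b and the mean of 10 stromal genes on each array, Gata3-/- in red on the left and Gata3+/- in blue on the right, with black bars for mean ± SD of 3 arrays (not drawn for Nanog) and a dashed line at the minimum of 4. Dppa4 is highest and the stromal mean lowest on array 2 of both genotypes, and Nanog passes the line on Gata3+/- array 1 alone.

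The rest of the pluripotency network was described through 6 further lists of 87 genes, of which 83 were named on the array and 40 were measurable with 90 probe sets. Of these 90, 1 was higher and 4 lower in Gata3-/- cells by limma at an adjusted p under 0.05, a share of 5.56% beside 4.37% of all tested probe sets (2.25% higher and 2.12% lower). The median difference was -0.13, against -0.03 over all tested probe sets. Measurable shares ran from 8.33% of the germ layer regulators to 100% of the chromatin cofactors, against 56.6% of all genes named on the array.

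**Figure D3:**
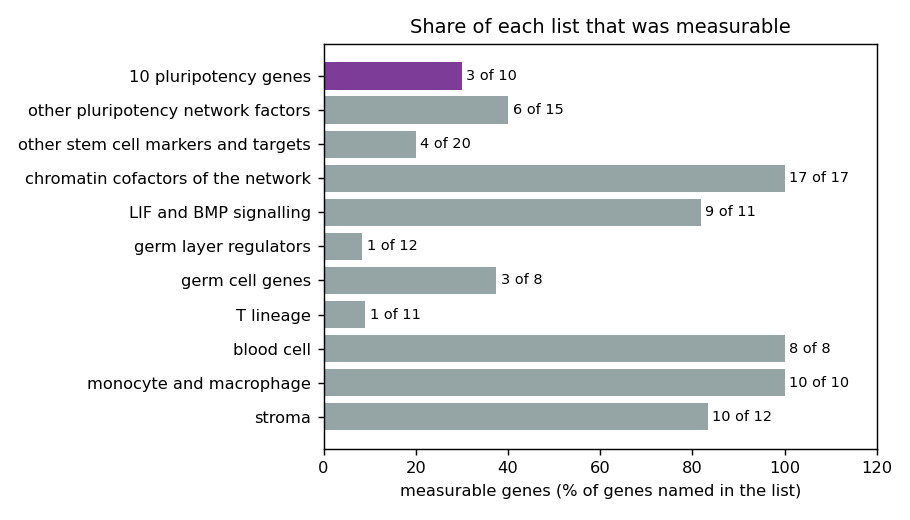
Percentage of the named genes of each list with a probe set at or above a log2 intensity of 4 on 3 or more arrays, with counts beside the bars. The 10 pluripotency genes (purple) reach 3 of 10, chromatin cofactors 17 of 17, blood cell markers 8 of 8 and T-lineage markers 1 of 11. Over all genes named on the array the share, not drawn, is 56.6%.

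Of 15 other transcription factors of the network, 6 were measurable (Klf2, Klf4, Myc, Mycn, Rif1 and Zfp281), and none of their 13 probe sets passed in limma. Zfp281, a zinc finger factor that works with OCT4 and NANOG, came closest, at 9.80, 9.92 and 9.93 in Gata3-/- cells and 10.26, 10.31 and 10.12 in Gata3+/- cells (difference -0.35, SE 0.09, adjusted p = 0.0798), and its second probe set gave -0.37 (adjusted p = 0.0972). Rif1, a telomere and replication timing factor, differed by -0.17 to -0.03 over 4 probe sets. The 3 probe sets of Mycn, a MYC family factor, disagreed: 1425923_at was lowest on array 2 of both genotypes, at 7.16 in Gata3-/- and 7.63 in Gata3+/- cells, where 1417155_at was highest, at 9.80 in Gata3-/- and 9.19 in Gata3+/- cells. The 9 factors under the minimum were Klf5, Tbx3, Prdm14, Nr5a2, Nr0b1, Sall4, Zscan10, Tcl1 and Foxd3.

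Of 20 further stem cell markers and targets, 4 were measurable and 1 rose, by 1 probe set. Epcam, an adhesion molecule of stem cells that epithelial cells also carry, had levels of 6.78, 5.91 and 5.97 in Gata3-/- cells, against 4.59, 4.50 and 4.70 in Gata3+/- cells. The genotypes did not overlap by this probe set, 1416579_a_at, and the difference was 1.62 (SE 0.25, 3.08-fold, limma adjusted p = 0.0363). The second probe set of Epcam, 1447899_x_at, lay under the minimum on every array, was not tested and overlapped. It was at 3.76, 3.79 and 3.86 in Gata3-/- cells and 3.83, 3.73 and 3.76 in Gata3+/- cells. The call of 1416579_a_at was lost without the filter (adjusted p = 0.0926), without both arrays numbered 2 (adjusted p = 0.138) and in each fit without 1 array (adjusted p of 0.06 to 0.116). Cdh1, which encodes E-cadherin of stem cells and epithelia and is named here after its values were seen, had levels of 9.00, 7.12 and 7.25 in Gata3-/- cells and 6.33, 4.78 and 5.58 in Gata3+/- cells (difference 2.22, SE 0.63, adjusted p = 0.108). It did not pass, and neither did Gdf3 or Fut4, which makes the SSEA1 carbohydrate. The 16 genes that were not measurable include Fgf4, Lefty1, Lefty2, Nodal, Fbxo15, Eras, L1td1, Dnmt3l, Dppa2 and Trim71, which lay under the minimum on every array. Tdgf1, which encodes the NODAL co-receptor CRIPTO, had 1 probe set, at 2.37, 3.26 and 3.31 in Gata3-/- cells, against 5.83, 5.19 and 3.47 in Gata3+/- cells. It passed the minimum on 2 Gata3+/- arrays, the genotypes did not overlap, and it was not tested because it missed the 3-array filter. Morc1 did so on Gata3-/- array 2 alone, at 6.17, and Tex19.1 on Gata3-/- arrays 2 and 3, at 5.64 and 4.57. Dppa2, the usual partner of Dppa4, was thus not measurable where Dppa4 was.

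All 17 chromatin cofactors of the network were measurable, with 42 probe sets and none past the threshold in limma. They include Ezh2, Eed and Suz12 of Polycomb complex PRC2, and Chd4 and Mbd3 of the NuRD complex. Suz12 came closest with probe set 1452364_at (difference 0.36, SE 0.09, limma adjusted p = 0.0798). By that probe set it was at 12.18, 12.01 and 11.93 in Gata3-/- cells and 11.70, 11.69 and 11.65 in Gata3+/- cells. The other tested probe sets of Suz12 gave differences of 0.20 to 0.31, apart from 1449661_at, at -0.08. Mbd3 differed by -0.32 (SE 0.08, adjusted p = 0.0880) and Chd1, a chromatin remodeller, by 0.21 with 1420990_at (SE 0.07, adjusted p = 0.166). The other probe sets of Chd1 gave differences from -0.04 to 0.32. Tet1, a DNA demethylase of stem cells that is also named after its values were seen, was measurable with 1 of its 4 probe sets, 1455425_at, which was low but above the minimum on all arrays, at 4.47, 5.31 and 4.40 in Gata3-/- cells and 4.97, 5.92 and 4.99 in Gata3+/- cells, and did not pass. Of the other 3, 1429448_s_at reached 4.91 on Gata3+/- array 2, and all their other values lay under the minimum. Of the 42 probe sets, some of which share a gene, 19 (45.2%) were highest on array 2 of both genotypes, against 23.2% of all tested.

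LIF, the cytokine that keeps mouse stem cells undifferentiated in culture, signals through LIFR and gp130 (Il6st) to JAK1 and STAT3, and BMP4 through SMAD1 to the Id genes. Neither ligand gene, Lif nor Bmp4, was measurable. The receptor gene Lifr fell, with levels of 6.14, 6.06 and 5.86 in Gata3-/- cells, against 8.00, 8.09 and 8.32 in Gata3+/- cells by probe set 1425107_a_at. The genotypes lay far apart relative to their spread, with a difference of -2.12 (SE 0.12, limma adjusted p = 0.0173), which is 4.34-fold lower. The second probe set of Lifr, 1454984_at, gave a difference of -1.21 (SE 0.13, adjusted p = 0.0281). Smad1 fell by 0.43 with 1416081_at (SE 0.07, adjusted p = 0.0379), while its other 2 probe sets, at -0.37 and -0.30, did not pass.

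Downstream of the receptor, Stat3, likewise named after its values were seen, had levels of 12.52, 12.30 and 12.39 in Gata3-/- cells and 11.92, 11.74 and 12.10 in Gata3+/- cells by probe set 1426587_a_at (difference 0.49, SE 0.12, adjusted p = 0.0795). Il6st, Jak1, Socs3, Bmpr1a, Id1 and Id3 did not pass either. Genes of this group were lowest on array 2 of both genotypes in 13 of 24 probe sets (54.2%), against 19.0% of all tested. Lifr itself differed between the genotypes by more than it varied within either. With 1425107_a_at array 2 lay between the other arrays of each genotype. With 1454984_at array 2 was the lowest of Gata3-/-, at 8.69, and the highest of Gata3+/-, at 10.23. Without both arrays numbered 2 the difference of 1454984_at was -1.05.

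Germ layer genes were likewise seldom measurable (8.33%). Germ cell genes were measurable at 37.5%, beside 30.0% of the 10 pluripotency genes and 56.6% of all genes named on the array. Of 12 germ layer genes, Nes alone was measurable, and 11, among them Eomes, Mixl1, Gata4, Sox17 and Pax6, were not. Nes, an intermediate filament protein of neural progenitors that some stromal cells also make, had levels of 5.77, 4.93 and 5.59 in Gata3-/- cells, against 7.50, 7.61 and 7.94 in Gata3+/- cells by probe set 1449022_at (difference -2.25, SE 0.25, limma adjusted p = 0.0281). Its 2 other probe sets gave -2.10 (adjusted p = 0.0614) and -1.50 (adjusted p = 0.0626). Of 8 germ cell genes, Dnd1, Prdm1 and Sycp3 were measurable and did not pass, with differences of 0.26, -0.39 and -0.29. Leaving out any 1 array ended every one of the 5 calls named here, apart from that of Lifr with 1425107_a_at in 1 of the 6 fits. Without both arrays numbered 2 all 5 were lost, with adjusted p from 0.0635 to 0.14. Without the filter those of Nes (adjusted p = 0.0603) and of Lifr with 1454984_at (adjusted p = 0.0544) were lost, besides that of Epcam. The lower levels of Lifr, Smad1 and Nes stood beside lower levels of 9 of 10 monocyte and macrophage genes, given above, Cd68 being the exception. They also stood beside stromal markers of which 9 of 10 genes were lower (median difference -0.64, 0 of 18 probe sets called). The part of either in these differences was not tested.

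**Figure D4:**
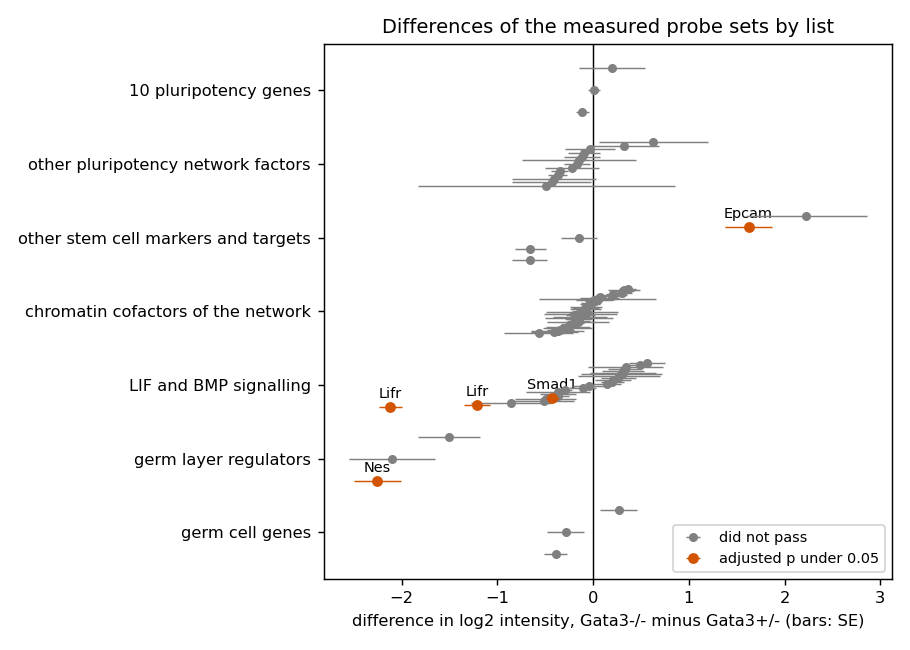
Difference in log2 intensity (Gata3-/- minus Gata3+/-, bars show SE) of every tested probe set of the 10 pluripotency genes and the 6 further lists, with those at an adjusted p under 0.05 in orange. The 3 probe sets of the pluripotency genes lie between -0.11 and 0.20 and none passed, while 2 of Lifr, 1 of Smad1 and 1 of Nes were lower and 1 of Epcam was higher.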

How the data were processed

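The 6 Affymetrix arrays, 3 labelled Gata3-/- and 3 labelled Gata3+/-, were grouped by their titles. The deposited table holds linear intensities of 45101 probe sets, made by the authors with GC-RMA per the labels, which subtracts a background estimated from probe sequence and normalizes between arrays. The submitters' processing notes also name GCOS, without a version. How probes were assembled into probe sets is unstated. GC-RMA compresses dim probe sets towards a floor, so differences under the minimum carry little information.

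The log2 of each intensity was taken and 64 control probe sets were left out. Of the remaining 45037, 20102 reached a log2 value of 4, or 16 before the logarithm, on at least 3 arrays. The difference, Gata3-/- minus Gata3+/-, was fitted to these in R 4.3.3 by limma 3.58.1 with lmFit and eBayes. Its two-sided p-values were adjusted across every tested probe set by the Benjamini-Hochberg method, and 0.05 was the threshold. Gene symbols came from the platform annotation, where 34945 probe sets had 1 symbol, 932 had several and 9160 were not listed. The gene order came from a RefSeq table of GRCm38.p6. The fit was tested on simulated data. Depth has no counterpart here beyond the number of arrays.

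The 10 genes and all lists were chosen with earlier results of these data known. Besides the 10 genes, the text names list members past the threshold, up to 3 of a list with the smallest p where none passed, the 3 nearest profiles of each tested gene, and genes it marks as chosen after their values were seen. Alternatives comprised other filters, normalizations, variance models and call rules, averaging per gene, the replicate number as a block, and leaving out arrays.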

Additional observations from a re-analysis of the deposited data

How the results depend on the processing

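None of the tested probe sets of the 10 genes was called under any of the 17 alternatives run, and 3 of 16 probe sets stayed above the minimum under all alternatives but a minimum of 3 (4 probe sets), of 5 (2) and of 6 (1). The difference of Dppa4 turned to -0.0931 without Gata3-/- replicate 2 and otherwise lay between 0.05 and 0.53, and that of Dppa3 turned to -0.0097 with quantile normalization. That of Dppa5a stayed between -0.15 and -0.06. Over all probe sets 878 were called, and 5 of the 90 in the 6 further lists. With no filter these became 166 and 2, array weights gave 2075 and 15, the replicate block 498 and 3, and the fit without both arrays numbered 2 gave 4 and 0. The block ended the calls of Epcam (adjusted p = 0.0516), Smad1 (0.0747) and Lifr with 1454984_at (0.0503). A variance trend with robust eBayes gave 1349 probe sets and a 2-fold minimum 257. Fits without 1 array called 0 to 9 probe sets in all and 0 to 1 in the lists, with 3578 to 4622 probe sets at an unadjusted p under 0.05 in limma. These fits hold fewer arrays. The cause of the other changes was not tested. Deviations of same-numbered arrays correlated by 0.005, 0.695 and 0.429 for numbers 1, 2 and 3 across tested probe sets. The correlation was thus highest for number 2 and lowest for number 1. As deviations were taken from the mean of the 3 arrays of each genotype, the correlations depend on each other and are not separate evidence. The titles do not say that same-numbered arrays are pairs, so the main fit left the number out. The replicate block given above is the fit that used it.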
